A study of Mus musculus with 2 samples.

Results

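Oxidative phosphorylation genes were compared between 1 preparation of naive gamma/delta T cells and 1 of naive CD8+ alpha/beta T cells. The genes were chosen by symbol alone, as every gene whose single platform symbol begins with Ndufa, Ndufb, Ndufc, Ndufs, Ndufv, Uqcr, Cox4 to Cox8 or Atp5, or is Sdha, Sdhb, Sdhc or Sdhd. This gave 90 genes, read by 179 probe sets, out of 18193 genes on the array. By symbol, 36 belong to complex I, 4 to complex II, 8 to complex III, 17 to complex IV and 17 to complex V. Another 8 (Ndufaf1 to Ndufaf8) encode complex I assembly factors, which are counted in the totals over all 90 genes but in none of the complexes. The source of both was the lymph nodes of C57BL/6 mice, and each was obtained by negative selection, in which unwanted cells are removed. The first is labelled naive and CD44-, the second naive and CD8+. The labels name no genetic change and no treatment for either, and do not state age, sex or how many mice were pooled. Total RNA of each preparation was hybridised to its own Affymetrix MOE430 2.0 array. By its title the series asks what the kinase Blk does as IL-17-producing cells of the gamma/delta lineage develop.

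The oxidative phosphorylation system sits in the inner mitochondrial membrane. Complex I takes electrons from NADH and complex II takes them from succinate, and both pass them to ubiquinone. Complex III hands them on to cytochrome c and complex IV to oxygen, while protons are pumped at complexes I, III and IV, and complex V, the ATP synthase, uses the proton gradient to make ATP. Naive T cells are resting cells that obtain most of their ATP in this way, and T cells that make IL-17 and those that make interferon-gamma are known to differ in how much they rely on it. All genes described here are encoded in the nucleus, and subunits encoded in mitochondrial DNA are outside the rule.

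With 1 array in each group there is no replicate, no error between samples and no test, so that every value compares these preparations and not the cell types in general. Signals are MAS5 intensities in scaled units. The higher of the array medians, 243.3, served as a floor, to which weaker signals were lifted before gamma/delta was divided by alpha/beta and log2 taken. Genes below it on 1 array have a lower limit only (a bound, or at least N-fold), and no ratio was formed for those below it on both. The call was set at 2-fold. The nearest thing to an error is the disagreement between probe sets of the same gene, whose log2 ratios had a pooled SD of 0.38 over 37 of the genes studied and 0.50 over 3317 genes of the whole array. Since both arrays were scaled to one mean signal, a ratio gives a transcript's share of the RNA, and in such bulk preparations fewer cells with a transcript and less of it per cell cannot be told apart.

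The labels were checked first. The receptor segments Trgv4 and Trgv1 read 12522 and 9449 on the gamma/delta array and lay under the floor on the other, while Cd8a and Cd8b1 had 8852 and 2193 on the alpha/beta array against 731 and 382. The remaining gene of that list, Tcra, went the other way, with 379 on the gamma/delta array and 170, under the floor, on the alpha/beta array (a bound of 0.64). Among naive T cell markers Lef1 and Il7r were 2.37-fold and 2.84-fold lower in the gamma/delta preparation. All 8 measured T cell markers lay above the floor on both arrays. Of these, 5 had a ratio above 0 and 3 below, namely Cd3d (-0.03), Cd247 (-0.04) and Cd6 (-0.26). Their median log2 ratio was 0.44, and Cd3g and Thy1 were called at 2.31-fold and 2.15-fold higher. Their summed signal was 95569 on the gamma/delta against 61728 on the alpha/beta array, of which Cd3e made up 59573 and 34224. Cd44 read 525 and 421, above the floor on both arrays although the gamma/delta cells are labelled CD44-. Markers of B cells, myeloid cells, red cells and platelets, NK cells and stroma were matched for 42 genes. For 23 of them neither signal reached the floor, among them Cd79a, Lyz2, Hba-a1 and Ncr1, so that these had no ratio and could not be called. Of the rest 0 differed 2-fold, beside 9.74% of all genes with a ratio, which is little to go by with so few genes. Others lay above the floor on both arrays. Of the B cell list, Ebf1 had 3331 on the gamma/delta and 2650 on the alpha/beta array, and Ms4a1 858 and 616. Cst3 of the myeloid list had 2787 and 1691, and of the stroma list Col1a2 had 981 and 536 and Pdpn 957 and 1061. Over all 42 genes the summed signal was 15682 on the gamma/delta and 13644 on the alpha/beta array. By list the sums were 6363 and 5519 for B cells, 4636 and 3418 for myeloid cells, 831 and 887 for red cells and platelets, 569 and 822 for NK cells, and 3283 and 2998 for stroma. The ratio of 3′ to 5′ signal of actin, a measure of RNA integrity, was 6.99 on the gamma/delta and 3.12 on the alpha/beta array. That of Gapdh was 3.06 and 3.24, and that of Tfrc was 3.97 and 4.47. The part of RNA integrity and of other cells in the ratios below was not tested.

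Oxidative phosphorylation transcripts as a whole lay slightly towards the gamma/delta preparation. Of the 90 genes, 83 had a ratio and 7 were dim on both arrays. Among the 83, 62 (74.7%) had a ratio above 0, against 52.4% of all 11914 genes with a ratio, and the median log2 ratio was 0.18 against 0.03. In all, 8 of the 83 were called higher in gamma/delta cells, where 5.82% of all genes were. Of the 83, 0 were called lower, where 3.93% of all genes were (9.74% in either direction). At 1.5-fold the counts were 21 higher and 3 lower, beside 17% and 13.2% of all genes. Ratios above 0 were also found for 103 of the 148 probe sets of these genes that had a ratio (69.6%), against 50.5% of the array's probe sets with 1 symbol. These totals include the assembly factors. Without them, 58 of 76 genes with a ratio lay above 0 (76.3%), with a median of 0.20, and 6 were called higher and 0 lower.

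**Figure D1:**
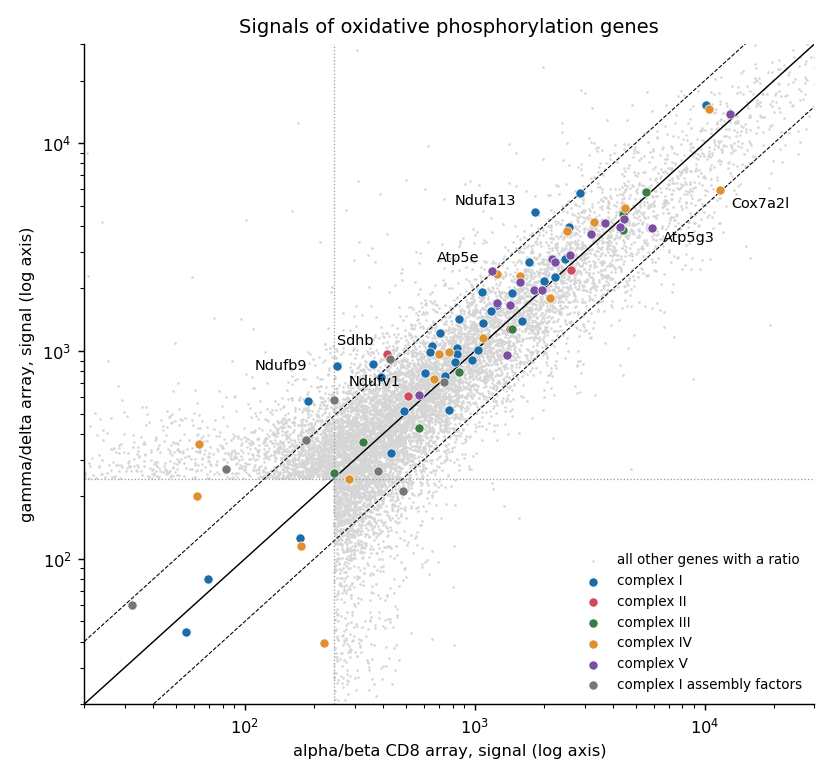
Each point is a gene, with its signal on the alpha/beta CD8 array on the horizontal and on the gamma/delta array on the vertical axis, both logarithmic and in scaled units. Colours give the complex, grey points other genes with a ratio (a few lie outside the axes), the solid line equal signals, dashed lines 2-fold differences and dotted lines the floor of 243.3. Most coloured points hug the solid line, Ndufb9, Ndufa13, Ndufv1, Sdhb and Atp5e lie above the upper dashed line, and Cox7a2l lies just inside the lower one.

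The shift was not shared evenly among the complexes. Complex I had 28 of 33 ratios above 0 and a median log2 ratio of 0.38 (1.30-fold), and complex IV had 11 of 14 and a median of 0.35. Complex V had 13 of 17 with a lower median of 0.16. Complex III was divided, with 4 of 8 above 0 and a median of -0.03, and complex II likewise, with 2 of 4 and a median of 0.08. Genes of high signal were taken separately. Among 2890 genes with a signal of at least 1000 on both arrays 47.4% had a ratio above 0 and the median was -0.04, whereas complex I had 14 of 16 above 0 (median 0.39), complex IV 7 of 9 (0.35) and complex V 12 of 15 (0.16), with complex III at 2 of 4 and complex II at 0 of 2. Whether one complex differs from another cannot be tested with these arrays, since genes are not replicates.

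**Figure D2:**
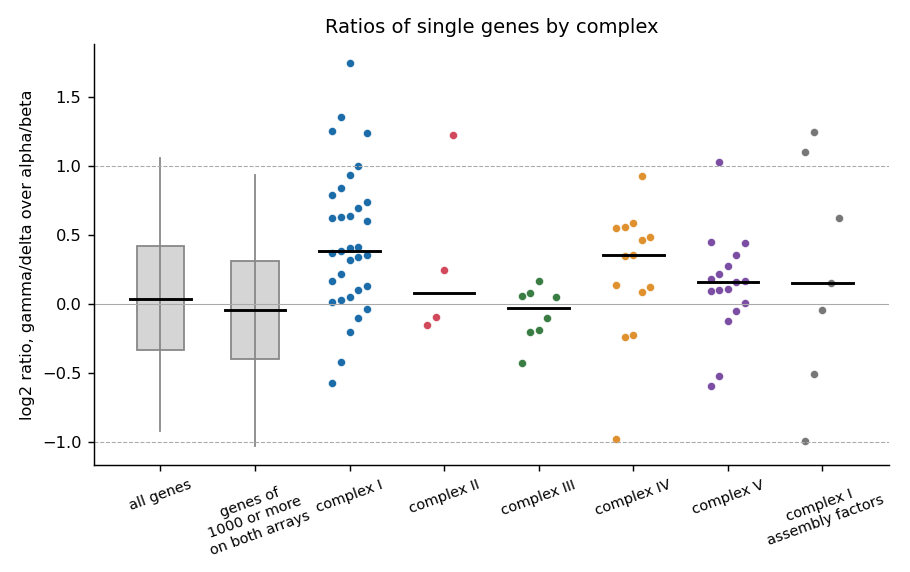
The log2 ratio (gamma/delta over alpha/beta) is shown for each gene with a ratio as a point, by complex, with the median as a black line. Grey boxes give the middle 50% and grey lines the 5th to 95th percentile of all 11914 genes and of the 2890 genes with signals of at least 1000 on both arrays, and dashed lines mark 2-fold. Complexes I and IV are centred near 0.38 and 0.35, complex III near 0.

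Complex I is the largest of the complexes, with an arm in the matrix that oxidises NADH and an arm in the membrane that pumps protons. Its 4 called genes were all higher in gamma/delta cells. Ndufb9, an accessory subunit of the far end of the membrane arm, had a gamma/delta signal of 844 against an alpha/beta signal of 252, a 3.35-fold difference. A further probe set of Ndufb9 gave 876 against 100.8, and the last was below the floor throughout. Ndufa13, also known as GRIM-19, an accessory subunit that was first found as a cell death regulator, had 4652 against 1818 on its 1 probe set (2.56-fold). It is the only called complex I gene with signals over 1000 on both arrays, where 4.26% of genes were 2-fold higher and 5.33% were 2-fold lower.

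The other called genes carry electrons in the matrix arm. Ndufv1, the flavoprotein where NADH is oxidised, had 862 against 362 (2.38-fold), and its 3 probe sets all lay above 0, with log2 ratios from 0.64 to 1.25. Ndufs8, which holds iron-sulfur clusters on the path to ubiquinone, had 574 against 188, under the floor, and so was at least 2.36-fold higher. Of its 6 probe sets 3 were below the floor throughout, and the other 3 gave bounds of 0.09, 0.65 and 1.24. A higher floor, the 70th percentile or a signal of 447.2, changed this. The calls of Ndufb9, Ndufv1 and Ndufs8 were lost, with log2 ratios of 0.92, 0.95 and a bound of 0.36, and Ndufa13 alone of the complex I genes kept its call. Ndufa13 in turn rests on a single _s_at probe set, a kind that can read transcripts of several genes, and has no value where suffixed probe sets are left out. Both probe sets shared by Ndufa13 and Yjefn3 were below the floor throughout, at 103 against 174 and 9.87 against 17.4.

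Below the call, 10 more complex I genes differed 1.5-fold or more towards gamma/delta cells, and 0 were 1.5-fold lower. Ndufc2, a membrane arm subunit, had 5736 against 2874, a log2 ratio of 0.997 that lies just under 2-fold and that became 1.07 after quantile normalization and after loess. Its other probe sets with a ratio gave 0.83 and 0.43. Ndufa7 had 750 against 392 (1.91-fold), Ndufv2, the iron-sulfur partner of Ndufv1, had 1914 against 1071 (1.79-fold), and Ndufb6 had 1216 against 703 (1.73-fold). Ndufs7, which carries the last iron-sulfur cluster before ubiquinone, had 1423 against 854 (1.67-fold). Ndufb11, an X-linked subunit of the membrane arm, had 15320 against 10085 (1.52-fold), and Ndufs3, a core subunit of the matrix arm, had 3954 against 2570 (1.54-fold). The other probe sets of Ndufb11 gave log2 ratios of 0.52 and -0.30. Ndufa4, Ndufb3 and Ndufv3 made up the 10, with log2 ratios of 0.70, 0.64 and 0.63. Ndufa4 carries a complex I symbol but is now placed in complex IV. Both groups together, 14 of 33, compare with 17% of all genes and 6 of the 16 bright ones with 12.3% of bright genes.

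The remaining subunits did not reach 1.5-fold or had no ratio. Ndufb7, Ndufa3, Ndufb10, Ndufa1, Ndufc1, Ndufs4, Ndufa10 and Ndufa12 had log2 ratios from 0.42 down to 0.22. For Ndufa9, Ndufa2, Ndufb8, Ndufa8, Ndufa6 and Ndufa5 they ran from 0.16 to 0.02. The 5 genes below 0 were Ndufb2 (-0.04), Ndufs1, the large iron-sulfur subunit of the NADH module (-0.10, with signals of 909 and 972), Ndufb5 (-0.20, 1387 and 1597), Ndufs5 (-0.42, 322 and 430) and Ndufab1 (-0.57, 519 and 771). Another probe set of Ndufb2 gave 640 against 430 (0.57), and that of Ndufb5 gave 791 against 571 (0.47), the opposite direction. Ndufab1 is the mitochondrial acyl carrier protein, which also serves fatty acid synthesis outside complex I. Neither array reached the floor for Ndufb1, Ndufb4 and Ndufa4l2.

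The parts of complex I were read separately, with no test of a difference between them. Of the NADH-oxidising module 8 of 9 genes lay above 0 (median log2 ratio 0.34), of the ubiquinone-binding module 5 of 5 (0.62), of the near part of the membrane arm 7 of 8 (0.36) and of its far part 7 of 10 (0.40). Agreement between probe sets was moderate. Of 19 complex I genes with several probe sets that had a ratio, 10 had all of them above 0, 0 had all below and 9 had both signs. The 9 were Ndufa7, Ndufa12, Ndufab1, Ndufb2, Ndufb5, Ndufb8, Ndufb11, Ndufs4 and Ndufs7. The probe sets of Ndufs8, Ndufa7, Ndufs7 and Ndufab1 differed from each other by a log2 ratio of at least 1. For Ndufa7 they ran from -0.39 to 1.17, for Ndufs7 from -0.40 to 0.74 and for Ndufab1 from -0.57 to 0.52, so that these directions depend on the probe set.

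**Figure D3:**
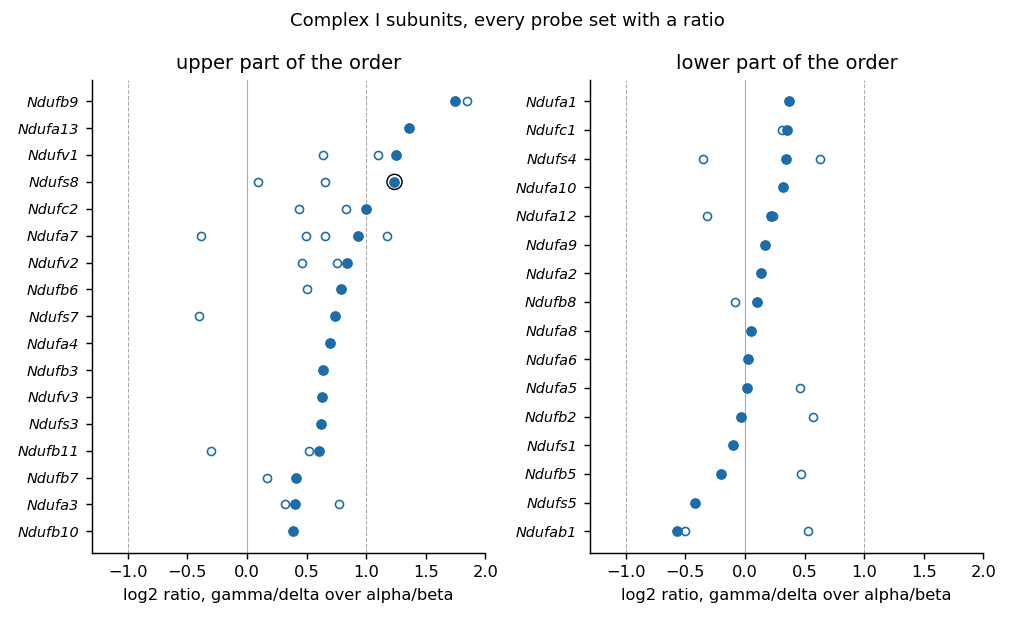
Every probe set with a ratio is shown for the 33 complex I subunits, with its log2 ratio (gamma/delta over alpha/beta) on the horizontal axis and genes ordered by it. Filled points are the probe set used for the gene, open points its other probe sets, the black ring marks a bound, and dashed lines mark 2-fold. The 4 filled points beyond the right dashed line are Ndufb9, Ndufa13, Ndufv1 and Ndufs8.

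The assembly factors help to build complex I and are not part of it. Of 8, 7 had a ratio, 4 of them above 0, with a median log2 ratio of 0.15. Of the 7, 2 were called higher and 0 lower, beside 5.82% and 3.93% of all genes. Ndufaf7, a methyltransferase that acts on a core subunit, had 582 against 245 (2.37-fold), and Ndufaf4 had 917 against 428 (2.14-fold). The other probe set of Ndufaf4 gave 432 against 586, the opposite direction, and averaged over both its log2 ratio was 0.33. The call of Ndufaf7 became a bound of 0.38 under the higher floor of 447.2. Ndufaf8 went the other way, with 213, under the floor, against 485, a bound of -0.99 that became -1.02 after quantile normalization and -1.01 after loess, past the call. Ndufaf1 was at least 1.54-fold higher, Ndufaf3 had a bound of 0.15, Ndufaf5 and Ndufaf2 had -0.04 and -0.51, and Ndufaf6 was below the floor throughout.

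Complex II, succinate dehydrogenase, belongs both to the respiratory chain and to the citric acid cycle. Its iron-sulfur subunit stood apart from the rest. Sdhb had 970 in gamma/delta cells against 416, a 2.33-fold difference on its 1 probe set. Sdha, the flavoprotein subunit, had 2448 against 2607 (log2 ratio -0.09), and its other probe set with a ratio gave 2935 against 2017 (0.54). The membrane anchors Sdhc and Sdhd had 606 against 510 (0.25) and 1276 against 1420 (-0.15). A second probe set of Sdhc gave a bound of -0.52, and that of Sdhd gave -0.54.

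Complex III, the cytochrome bc1 complex, was the most even of the complexes. All 8 genes lay within a log2 ratio of -0.43 to 0.17. Of them 0 reached 1.5-fold in either direction, beside 17% of all genes higher and 13.2% lower. Uqcrb had 5814 against 5578, Uqcrc2, a core protein, had 4579 against 4421, and Uqcrh, the hinge protein, had 3832 against 4411. Uqcrfs1, the Rieske iron-sulfur protein, had 1278 against 1458 (-0.19). Uqcrc1, the other core protein, was the lowest, with 426 against 573 (-0.43). Uqcr11, Uqcrq and Uqcr10 had log2 ratios of 0.17, 0.08 and -0.10. Cytochrome c1 (Cyc1), also a subunit of complex III, has a symbol outside the rule and is given with the carriers below. The SD of the ratios between complex III genes was 0.20, against 0.52 for complex I, and the pooled SD between probe sets was 0.13 over 4 genes, against 0.45 over 14.

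Complex IV, cytochrome c oxidase, had 0 called genes out of 14 with a ratio, beside 5.82% of all genes called higher and 3.93% lower. Of its 14 ratios 11 lay above 0. Cox6b1, which faces the intermembrane space, had 2359 against 1242 (1.90-fold), and its other probe set gave 1842 against 1100. Cox6c had 3794 against 2523 (log2 ratio 0.59), with 0.89 from its other probe set. Cox5a had 2293 against 1567 (log2 ratio 0.55), Cox7a2 had 14557 against 10387 (0.49), Cox8a had 965 against 699 (0.46) and Cox5b had 4189 against 3286 (0.35). All 5 probe sets of Cox5b with a ratio lay above 0, from 0.12 to 0.62, and both of Cox7a2 did, while those of Cox5a ran from -0.26 to 0.55. Another probe set of Cox8a gave 774 against 300 (1.37), past the call. Cox6a1 and Cox7c were nearly equal, at 0.12 and 0.09, and Cox4i1, a regulatory subunit that binds ATP, had 1798 against 2126 (-0.24).

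Cox7a2l was the exception in complex IV. It had 5947 in gamma/delta cells against 11677, a log2 ratio of -0.97, 1.96-fold lower and just under the call. Its other 2 probe sets gave 6158 against 10257 and 3688 against 6809, so that all 3 pointed the same way, from -0.97 to -0.74. The protein is homologous to Cox7a2 and helps to join complexes III and IV into supercomplexes, and C57BL/6, the strain of both preparations, is known for a short form of it with reduced function. Its homologue Cox7a2 lay on the other side of 0.

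Of 8 subunit isoforms typical of other tissues, 4 were under the floor on both arrays, 2 on 1 array and 2 on neither. Cox4i2, known from lung, the muscle isoforms Cox7a1 and Cox8b, and Ndufa4l2, a hypoxia-induced relative of Ndufa4, were below the floor on each array, with signals from 39.5 to 221. The testis isoforms Cox6b2 and Cox8c lay under it on 1 array, at 358 against 63 and 243 against 284, with bounds of 0.56 and -0.22. Cox6a2, the muscle isoform of Cox6a1, had 984 against 769 on 1 probe set and 7.37 against 7.01 on the other, so that its detection depends on the probe set. Cox7b2, a testis isoform, had 729 against 661. A list of general isoforms held 8 genes with a probe set of 1 symbol. All were above the floor on both arrays and 6 had ratios above 0. In that list Uqcrh and Atp5l are not partners of the isoforms named here, and Cox7b, the partner of Cox7b2, had no such probe set.

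Complex V had 1 called gene out of 17 with a ratio, near the 5.82% of all genes called higher. Atp5e, the epsilon subunit of the rotor's central stalk, had 2416 against 1182, a 2.04-fold difference that lies just over the call. It has 1 probe set, of a kind (_s_at) that can read transcripts of several genes. The 5 genes of the catalytic F1 head and central stalk all lay above 0 on the probe set used, with a median log2 ratio of 0.27. Atp5d, the delta subunit, had 2159 against 1578 (0.45), the catalytic beta subunit Atp5b had 2682 against 2221 (0.27), Atp5c1, the gamma subunit, had 4110 against 3687 (0.16) and the alpha subunit Atp5a1 had 13744 against 12825 (0.10). Another probe set of Atp5c1 gave 423 against 624 (-0.56). The others of Atp5a1 gave 0.19 and, with 2075 against 2643, -0.35, so that both directions depend on the probe set. The membrane part and outer stalk had 8 of 12 above 0 and a median of 0.10. Atp5j, coupling factor 6, had 1699 against 1251 (0.44) and Atp5pb, the b subunit, 2761 against 2164 (0.35), with -0.32 from its other probe set. Atp5k, Atp5j2, Atp5md, Atp5l and Atp5o lay between 0.22 and 0.01, Atp5h had 4296 against 4446 (-0.05), and Atp5mpl had 3930 against 4281 (-0.12). Of 9 complex V genes with several probe sets that had a ratio, 2 had all above 0, 1 had all below and 6 had both signs.

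The c subunit, which forms the rotating ring of the membrane part, is made from 3 genes whose mature proteins are identical and which differ in their targeting sequences and regulation. None of them reached the call. Atp5g3 had 3906 in gamma/delta cells against 5905 (log2 ratio -0.60, 1.51-fold lower), and Atp5g2 had 957 against 1374 (-0.52, 1.44-fold lower). These were the lowest ratios in complex V. Atp5g1 had 612 against 574 (0.09) on the probe set used and a bound of -0.29 on the other (84.2 against 298), so that its direction depends on the probe set. Atp5g3 has 1 probe set, and the other probe sets of Atp5g2 were below the floor throughout.

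**Figure D4:**
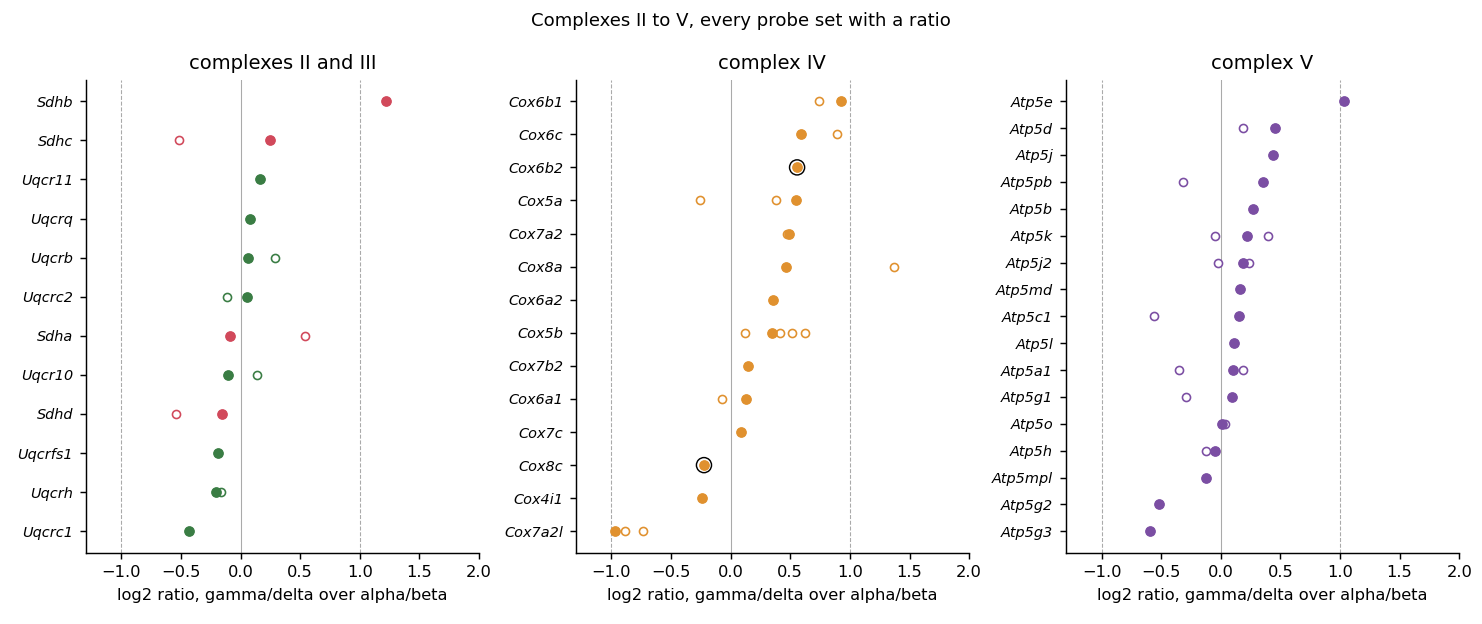
Every probe set with a ratio is shown for the genes of complexes II and III, IV and V, with its log2 ratio (gamma/delta over alpha/beta) on the horizontal axis. Filled points are the probe set used for the gene, open points its other probe sets, black rings mark bounds and dashed lines 2-fold. Sdhb and Atp5e lie beyond the right dashed line, complex III stays near 0, and the 3 probe sets of Cox7a2l lie together on the left.

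Promoters of these genes were read because nuclear genes of the respiratory chain are known to share binding sites for NRF-1, for GABP, an ETS factor, and for YY1. RefSeq promoters (GRCm38.p6, 250 bases before to 50 after each start) were found for 74 of the 90 genes, as 79 windows of 300 bases. On either strand, the NRF-1 core GCGCANGCG was in 26.6% of them, against 6.25% of all 32851 windows in the table and 9.89% of those of genes with a probe set of 1 symbol. The ETS/GABP letters CCGGAAG were in 24.1%, against 8.86% and 13%, and the YY1 letters AAGATGG in 13.9%, against 6.34% and 6.39%. By complex, the NRF-1 core was in 20.6% of the 34 windows of complex I, 38.9% of 18 of complex V and 8.33% of 12 of complex IV. The ETS/GABP letters were in 11.8%, 33.3% and 25% of them. Complexes II and III had only 3 and 5 windows, and each of these motifs was in 66.7% and 40% of those. Matches may overlap, and the NRF-1 core can be read on both strands at one place. A match describes letters and is not evidence of binding.

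The stretches below, the 250 bases before the start with matches in capitals, were chosen after the values were seen. They pair genes of one complex that differed in ratio. In complex I, Ndufv1 was called and has no match to any of the 3 motifs, and Ndufs3, 1.54-fold higher, has ETS/GABP letters that begin 27 bases before the start.
Ndufv1, chr19:4012756-4013005, minus strand: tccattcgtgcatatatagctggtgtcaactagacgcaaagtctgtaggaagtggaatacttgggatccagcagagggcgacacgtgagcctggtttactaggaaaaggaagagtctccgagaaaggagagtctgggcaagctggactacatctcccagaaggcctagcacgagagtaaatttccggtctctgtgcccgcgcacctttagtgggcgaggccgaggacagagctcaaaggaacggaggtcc
Ndufs3, chr2:90904722-90904971, minus strand: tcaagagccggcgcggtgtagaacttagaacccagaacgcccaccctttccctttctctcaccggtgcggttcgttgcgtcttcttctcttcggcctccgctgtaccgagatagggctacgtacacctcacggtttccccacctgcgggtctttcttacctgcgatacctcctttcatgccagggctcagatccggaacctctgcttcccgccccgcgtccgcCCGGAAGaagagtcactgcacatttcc

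In complex II, Sdhb was 2.33-fold higher and Sdha nearly equal. Sdha holds 3 NRF-1 cores, all in the direction of the gene, and the ETS/GABP letters of Sdhb lie past the bases shown.
Sdhb, chr4:140961021-140961270, plus strand: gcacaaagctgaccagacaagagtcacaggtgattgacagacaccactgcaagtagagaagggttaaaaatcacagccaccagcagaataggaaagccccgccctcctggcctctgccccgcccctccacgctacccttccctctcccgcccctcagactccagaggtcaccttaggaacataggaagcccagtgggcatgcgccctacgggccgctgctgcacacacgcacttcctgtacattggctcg
Sdha, chr13:74350241-74350490, minus strand: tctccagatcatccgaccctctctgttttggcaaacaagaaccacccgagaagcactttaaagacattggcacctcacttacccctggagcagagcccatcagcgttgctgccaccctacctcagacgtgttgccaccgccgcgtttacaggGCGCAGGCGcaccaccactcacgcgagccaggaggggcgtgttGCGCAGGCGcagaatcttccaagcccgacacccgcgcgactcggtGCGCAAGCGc

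In complex IV, Cox6b1 was 1.90-fold higher and Cox7a2l 1.96-fold lower. Cox6b1 has ETS/GABP letters on the opposite strand, which begin 28 bases before the start, and Cox7a2l has no match in its window.
Cox6b1, chr7:30626115-30626364, minus strand: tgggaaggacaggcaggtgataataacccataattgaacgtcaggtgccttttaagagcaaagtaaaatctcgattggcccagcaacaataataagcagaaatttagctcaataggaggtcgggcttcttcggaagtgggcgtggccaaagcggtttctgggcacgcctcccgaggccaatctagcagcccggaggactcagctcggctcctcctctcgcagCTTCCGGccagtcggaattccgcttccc
Cox7a2l, chr17:83514334-83514583, minus strand: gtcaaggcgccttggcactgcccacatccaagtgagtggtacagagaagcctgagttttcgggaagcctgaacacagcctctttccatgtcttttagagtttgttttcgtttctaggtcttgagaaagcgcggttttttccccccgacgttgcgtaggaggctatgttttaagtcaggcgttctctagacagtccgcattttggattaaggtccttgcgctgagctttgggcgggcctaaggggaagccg

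The c subunit genes of complex V are shown because they code for one mature protein. Atp5g2 holds an NRF-1 core that reads on both strands, Atp5g1 has no match, and the NRF-1 core of Atp5g3 lies past the bases shown.
Atp5g1, chr11:96075632-96075881, minus strand: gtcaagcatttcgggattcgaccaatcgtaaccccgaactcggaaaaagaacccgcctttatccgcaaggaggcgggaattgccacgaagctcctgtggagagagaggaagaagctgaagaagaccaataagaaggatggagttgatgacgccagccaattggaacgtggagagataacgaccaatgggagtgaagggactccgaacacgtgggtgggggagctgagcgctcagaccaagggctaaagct
Atp5g2, chr15:102671048-102671297, minus strand: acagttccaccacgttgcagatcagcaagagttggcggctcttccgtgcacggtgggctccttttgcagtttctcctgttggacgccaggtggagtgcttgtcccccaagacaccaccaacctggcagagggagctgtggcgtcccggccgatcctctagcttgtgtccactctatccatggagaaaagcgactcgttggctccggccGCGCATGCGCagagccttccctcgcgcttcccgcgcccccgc
Atp5g3, chr2:73911327-73911576, minus strand: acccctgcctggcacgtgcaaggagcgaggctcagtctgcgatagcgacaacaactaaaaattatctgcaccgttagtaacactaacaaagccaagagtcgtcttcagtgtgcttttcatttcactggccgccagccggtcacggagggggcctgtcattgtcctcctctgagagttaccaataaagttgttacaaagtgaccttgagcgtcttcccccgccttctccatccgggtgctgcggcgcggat

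Genes that build or feed the chain were read from lists outside the rule. Of 31 further assembly factors with a ratio, out of 37 listed, 22 lay above 0, 3 were called higher in gamma/delta cells and 1 lower, beside 5.82% and 3.93% of all genes. These 4 calls became 1 under the floor of 447.2 or with the median of a gene's probe sets, 2 with probe sets averaged, 0 among bright genes, 7 under a lower floor (30th percentile) and 11 with none. Over all genes the lower floor gave 1320 higher and 1008 lower of 15421, and no floor 2917 and 2593 of 18193. The median log2 ratio of the 31 was 0.31, and it ran from 0.20 to 0.50 over the alternatives. Sdhaf4, which helps to mature Sdha, had 1352 against 529 (2.56-fold), Cox15, of the heme a pathway, 751 against 207 (at least 3.09-fold) and Pet100, a complex IV factor, 763 against 348 (2.19-fold). Ttc19, a complex III factor, was at least 2.03-fold lower. The other probe sets of Cox15 with a ratio gave 0.39 and a bound of 0.21. That of Pet100 gave a bound of 0.22, and those of Ttc19 gave bounds of -0.51 and -0.13. Below the call, Sco1, a copper chaperone of complex IV, had 1217 against 624 (1.95-fold higher). Tmem70 went the other way, with 262 against 506 (-0.95, 1.93-fold lower).

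Among 15 carriers and ubiquinone genes with a ratio 6 lay above 0, 1 was called higher and 1 lower, near the 5.82% and 3.93% of all genes. The median was -0.10, or 0.037 with probe sets averaged. Coq2, of ubiquinone synthesis, had 914 against 401 (2.28-fold higher), and Etfdh, which passes electrons from fatty acid oxidation to ubiquinone, had 322 against 1013 (3.15-fold lower). Cytochrome c (Cycs) had a log2 ratio of 0.12. Cytochrome c1 (Cyc1), which is a subunit of complex III but was read in this list, had -0.21. Of 18 citric acid cycle and pyruvate entry genes 0 were called on the probe set used, beside 5.82% and 3.93% of all genes. Of the 18, 11 lay above 0, and the median was 0.19, or -0.12 without the suffixed probe sets that can read several transcripts. Pdhb and Dlat, of pyruvate dehydrogenase, had 0.83 and 0.74, while Dld, also part of it, had -0.56 (283 against 418). Cs, citrate synthase, had -0.41. Ogdh had -0.10, but another of its probe sets gave 694 against 172, a bound of 1.51 that is past the call.

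Regulators of mitochondrial gene expression lay mostly towards alpha/beta cells. Of 18 with a ratio, out of 22 listed, 6 lay above 0, 0 were called higher and 3 lower, beside 5.82% and 3.93% of all genes. The 3 calls became 1 under the floor of 447.2, among bright genes or with probe sets averaged, and 5 with no floor. With no floor 2917 of all 18193 genes were called higher and 2593 lower. The median log2 ratio of the 18 was -0.27, but among the 5 with signals of at least 1000 on both arrays it was 0.19, with 3 above 0. The called genes were Yy1, the factor named above, with 9353 against 21208 (2.27-fold lower), Tfb1m, an rRNA methyltransferase of mitochondria (270 against 547, 2.02-fold) and Ppargc1b, a coactivator of mitochondrial genes (386 against 778, 2.02-fold). The other probe sets of Yy1 with a ratio gave -1.22 and 0.39. Twnk had the largest ratio above 0, with 782 against 452 (0.79, 1.73-fold higher). Ssbp1 had 3883 against 2784 (0.48), and its other probe sets with a ratio gave 0.43, -0.29 and a bound of -0.40. Nrf1 had 359 against 579 (-0.69, with -0.25 and 0.24 on other probe sets), Gabpa 808 against 1030 (-0.35), Ppargc1a 1102 against 1273 (-0.21) and Tfam, which packages and transcribes mitochondrial DNA, 3075 against 2443 (0.33, and -0.48 on its other probe set).

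Other multi-subunit machines, picked by symbol after the values were seen, had other medians on the same arrays. Mitochondrial ribosomal proteins had a median log2 ratio of 0.30 over 65 genes, with 42 above 0, 10 called higher and 0 lower, beside 5.82% and 3.93% of all genes. Proteasome subunits had -0.05 over 39 genes, with 18 above 0. Cytosolic ribosomal proteins had -0.42 over 44 genes, with 6 above 0. None of these differences can be tested with 1 array for each group.

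**Figure D5:**
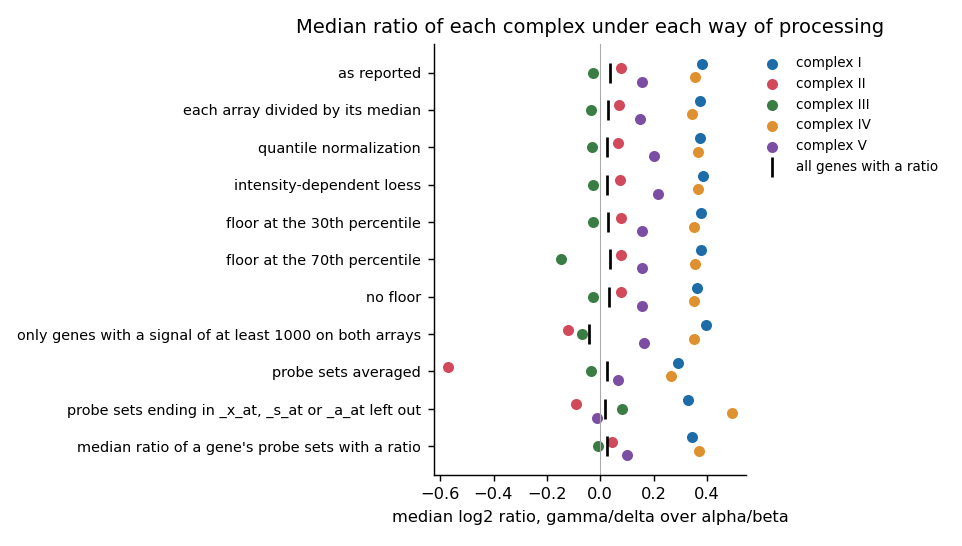
The median log2 ratio (gamma/delta over alpha/beta) of each complex is shown as a point for each way of processing, with the median over all genes with a ratio as a black bar. Complexes I and IV stay between 0.26 and 0.49 under every setting shown, complex III between -0.15 and 0.08, and complex II falls to -0.57 where probe sets are averaged.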

How the data were processed

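The authors deposited 1 intensity per probe set and array, from biotin-labelled target. Per the submitters' processing notes the tools were Affymetrix Expression Console 1.0 and MAS5. The 2% trimmed mean was 500.003 on each array. MAS5 spreads weak signals widely. Detection calls were not used here. Depth is not counted in reads, and 1 array per group limits the precision.

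Symbols came from the platform annotation and were the same in RefSeq (GRCm38.p6) for all 90 genes. The 10 probe sets of the rule with several symbols were left out. Where several probe sets read a gene, the brightest by mean log2 signal was used. Ratios, floor and 2-fold call are described above. Named were, per complex, the 3 genes of highest signal and the 3 of largest ratio in each direction, called genes, isoform pairs and genes whose probe sets disagreed, and others to account for every gene. Members and lists were chosen with earlier results of these data known. Alternatives were scaling, floor, gene summary and call size. Scripts (Python 3.11.15, numpy 2.4.6, pandas 2.3.3) were tested on simulated arrays.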

Additional observations from a re-analysis of the deposited data

How the results depend on the processing

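The median log2 ratios over all 90 genes stayed between 0.16 and 0.22 under every alternative run, and those of complex III between -0.15 and 0.08. A median was held to have moved when it changed by more than the probe set SD divided by the root of the number of genes. With probe sets averaged the median was 0.29 for complex I and -0.57 for complex II, whose called genes became 2 in number, Sdhb and, lower, Sdha (-1.07). Both other probe sets of Sdha, which lay under the floor, enter that average. Without suffixed probe sets (_a_at, _s_at, _x_at) it was 0.49 for complex IV and -0.012 for complex V. Counts of called genes moved more. Over all complexes the 8 became 4 with the floor at the 70th percentile, 14 with no floor, 2 among genes of at least 1000 on both arrays, 5 without suffixed ones and 24 at 1.5-fold. For complex I the 4 became 1, with the 70th percentile floor and among bright genes alike, 2 with probe sets averaged, 2 without the suffixed ones and 14 at 1.5-fold. For complex II the 1 became 0 among bright genes. For complex IV the 0 became 1 with the floor at the 30th percentile (Cox6b2, 1.47), 3 with no floor, 1 without suffixed probe sets and 3 at 1.5-fold. For complex V the 1 became 0 without suffixed probe sets, since Atp5e has no other, and 2 at 1.5-fold. No called gene changed direction under these alternatives. The median over a gene's probe sets was added as an alternative after the data were seen and gave 6 called genes. The suffixed probe sets can read several transcripts or genes and were used for 49 of the 83 genes. Bounds and calls near the floor are limited by signal over background.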

Other observations

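Probe sets that carry several symbols of the rule stand outside the values above, and 6 of the 10 had a ratio. A probe set shared by Ndufs6, the zinc-binding subunit of the NADH module of complex I, and its relative Ndufs6b had 1234 on the gamma/delta array against 784 (log2 ratio 0.65). Of the probe sets shared by Ndufb4 and its relatives Ndufb4b and Ndufb4c, 1 had 1364 against 781 (0.80) and the other 547 against 550 (-0.01). Those shared by Ndufa11 and Ndufa11b gave 434 against 348 (0.32) and a bound of -0.15. The probe set shared by Ndufs5 and its pseudogene had 540 against 303 (0.83), while the probe set of Ndufs5 alone had 322 against 430 (-0.42), so that the direction of Ndufs5 depends on which is read. None of the 6 reached 2-fold, where 1056 of 20297 probe sets with 1 symbol were higher and 887 lower.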
